A study of Mus musculus with 4 samples.

Results

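The 7 sirtuin genes Sirt1 to Sirt7 were examined in a map of histone H3 lysine 9 acetylation (H3K9ac) in the mouse line HT22, immortalised cells of hippocampal neuronal origin whose source label reads TH22. H3K9ac is a mark of active promoters and enhancers, measured here by chromatin immunoprecipitation and sequencing (ChIP-seq). The members were taken by symbol, and every row of the deposited list of differential regions that overlapped a gene's annotated span or the 5 kb on either side was assigned to that gene. This gave 21 of the 45855 regions in the list, with no region assigned to more than 1 sirtuin. Choline chloride was given for 48 h at 70 µM (supplemented) or at 5 µM (control), in both cases in high-glucose medium with fetal bovine serum and antibiotics. The series holds 4 libraries, 2 of H3K9ac ChIP DNA and 2 of input DNA, so a choline level had 1 ChIP library at most, and the labels assign no library to a level. The list gives regions unique to condition 2 and regions unique to condition 1. These are read as 70 µM and 5 µM from the regions' names, which set 5 against 70, and every direction below rests on that reading. The name of the deposited file instead sets input against H3K9ac. The series' design text and the submitters' processing notes describe a call of differences between the choline levels, as the regions' names do. The choline reading is therefore followed, although the file name stays unexplained. If the conditions were input and H3K9ac, the condition 2 regions would be regions of H3K9ac over input, and no statement on choline below would hold. Regions shared by the conditions are not listed, so a gene without a region may carry H3K9ac at both levels alike. The list holds no value per library, so the spread between cultures and the markers of the cell type could not be examined, and no difference between choline levels was tested.

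Sirtuins are deacylases that consume NAD+ and release nicotinamide, unlike the zinc-dependent histone deacetylases. Their activity therefore depends on the supply of NAD+. SIRT1, SIRT6 and SIRT7 are mainly nuclear proteins, SIRT6 being known for removing acetyl groups from H3K9 itself and SIRT7 for its place in the nucleolus. SIRT2 is mainly cytoplasmic and deacetylates tubulin. SIRT3, SIRT4 and SIRT5 reside in mitochondria, where SIRT3 is the chief deacetylase and SIRT5 removes succinyl and malonyl groups. Only the genes are described here: where the protein works is a label for grouping them and says nothing of the proteins in these cells.

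All 21 regions at the sirtuin genes were called at 70 µM and none at 5 µM. Across the whole list 99.2% of regions were 70 µM regions, so this direction is that of the list. Sirt3 held 6 regions, Sirt2 and Sirt7 held 5 each, Sirt5 held 2, and Sirt1, Sirt6 and Sirt4 held 1 each. Thus 7 of 7 sirtuins had a 70 µM region in the window, against 60.7% of the 21938 protein-coding genes, or 60.8% with regions of either level. Inside the gene span alone it was 5 of 7, against 51.9%. Sirt1 counts in both only through the long transcript Sirt1-203, since its region lay 20511 bp upstream of its RefSeq start. Within 1 kb of an annotated transcript start, 6 of 7 sirtuins had a 70 µM region, against 39.2% of protein-coding genes, and Sirt1 was the exception. The count was also 6 of 7 with the starts of coding transcripts only, against 36.4%, and with RefSeq starts, against 35.9% of the genes in the RefSeq promoter table. The 3 sirtuins with 3 or more regions all had 5 or more, against 30.0% of protein-coding genes with 3 or more and 13.6% with 5 or more. A 5 µM region lay in the window of 1.75% of protein-coding genes and near a start of 0.880%, and in neither place at any sirtuin. The closest 5 µM region to a sirtuin start was 48.9 kb away, at Sirt7, and the farthest of the nearest ones was 3805 kb away, at Sirt1.

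Each region carries 1 score in the list, in a column the file does not name. It is taken here as the log10 likelihood ratio that bdgdiff, the MACS2 function named for this comparison, normally writes, which the file does not state. It is used only to order regions within the list and is not read as a fold of acetylation.

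For each gene with one, the sequence of 1 region near the first coding-transcript starts is shown first, since it marks where the list comes nearest to transcription. Annotated untranslated sequence was left out, which removed the Sirt4 region and the Sirt7 start-site region entirely. Further start-site regions are not printed: that of Sirt2-208, with 1 CpG site in the 72 bases outside untranslated sequence, and the one in Sirt3 within 1 kb of the start of a noncoding transcript, with 1 in 121. The letters are the plus strand of GRCm38.p6 (mm10) from RefSeq, and capitals mark CpG sites.
Sirt2 start, part of the region behind exon 1, chr7:28766868-28766960: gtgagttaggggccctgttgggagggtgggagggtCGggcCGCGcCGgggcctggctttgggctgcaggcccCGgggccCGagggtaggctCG
Sirt3 start, whole region, chr7:140882645-140882772: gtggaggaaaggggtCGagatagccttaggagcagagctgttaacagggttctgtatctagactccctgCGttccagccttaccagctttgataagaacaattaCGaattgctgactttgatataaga
Sirt5 start, part of the region behind exon 1, chr13:43365981-43366078: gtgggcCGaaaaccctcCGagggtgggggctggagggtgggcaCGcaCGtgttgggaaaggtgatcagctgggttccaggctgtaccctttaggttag
Sirt6 start, part of the region before Ankrd24, chr10:81628434-81628539: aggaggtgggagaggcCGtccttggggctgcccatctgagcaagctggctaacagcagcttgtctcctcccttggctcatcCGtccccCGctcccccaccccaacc

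The Sirt2 stretch held 7 CpG sites in 93 bases, the Sirt3 region 3 in 128, the Sirt5 stretch 4 in 98 and the Sirt6 stretch 3 in 106. The next 4 regions lay inside sirtuin genes, far from the starts of their coding transcripts, and had scores from 16.72 to 23.66 in the authors' deposited table.
Sirt1 intron, whole region, chr10:63359546-63359673: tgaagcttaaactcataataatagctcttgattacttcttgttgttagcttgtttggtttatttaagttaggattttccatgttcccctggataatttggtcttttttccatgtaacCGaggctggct
Sirt2 intron, whole region, chr7:28774493-28774625: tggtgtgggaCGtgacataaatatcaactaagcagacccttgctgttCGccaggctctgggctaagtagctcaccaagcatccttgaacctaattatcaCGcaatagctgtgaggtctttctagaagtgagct
Sirt3 intron, whole region, chr7:140864414-140864599: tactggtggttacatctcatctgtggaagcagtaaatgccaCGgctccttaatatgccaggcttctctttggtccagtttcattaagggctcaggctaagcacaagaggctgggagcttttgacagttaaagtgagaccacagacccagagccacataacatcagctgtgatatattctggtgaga
Sirt2 internal noncoding start, whole region, chr7:28784531-28784681: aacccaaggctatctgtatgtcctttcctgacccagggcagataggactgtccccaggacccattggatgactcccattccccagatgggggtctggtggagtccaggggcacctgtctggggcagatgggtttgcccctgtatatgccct

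These 4 regions held 1, 3, 1 and 0 CpG sites. Other such regions are not printed: the one in Sirt3 named above, and a Sirt3 intronic region with a score of 6.97. The latter held 10 CpG sites in 196 bases, so not all internal regions were poor in CpG sites. Every 32-base word in each of the 8 regions behind these lines occurred once in the genome, as did those of 20 of the 21 regions. The exception was the region at Nol7 beside Sirt5, where 93.8% of words were single-copy and the commonest word had 1169 copies.

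**Figure D1:**
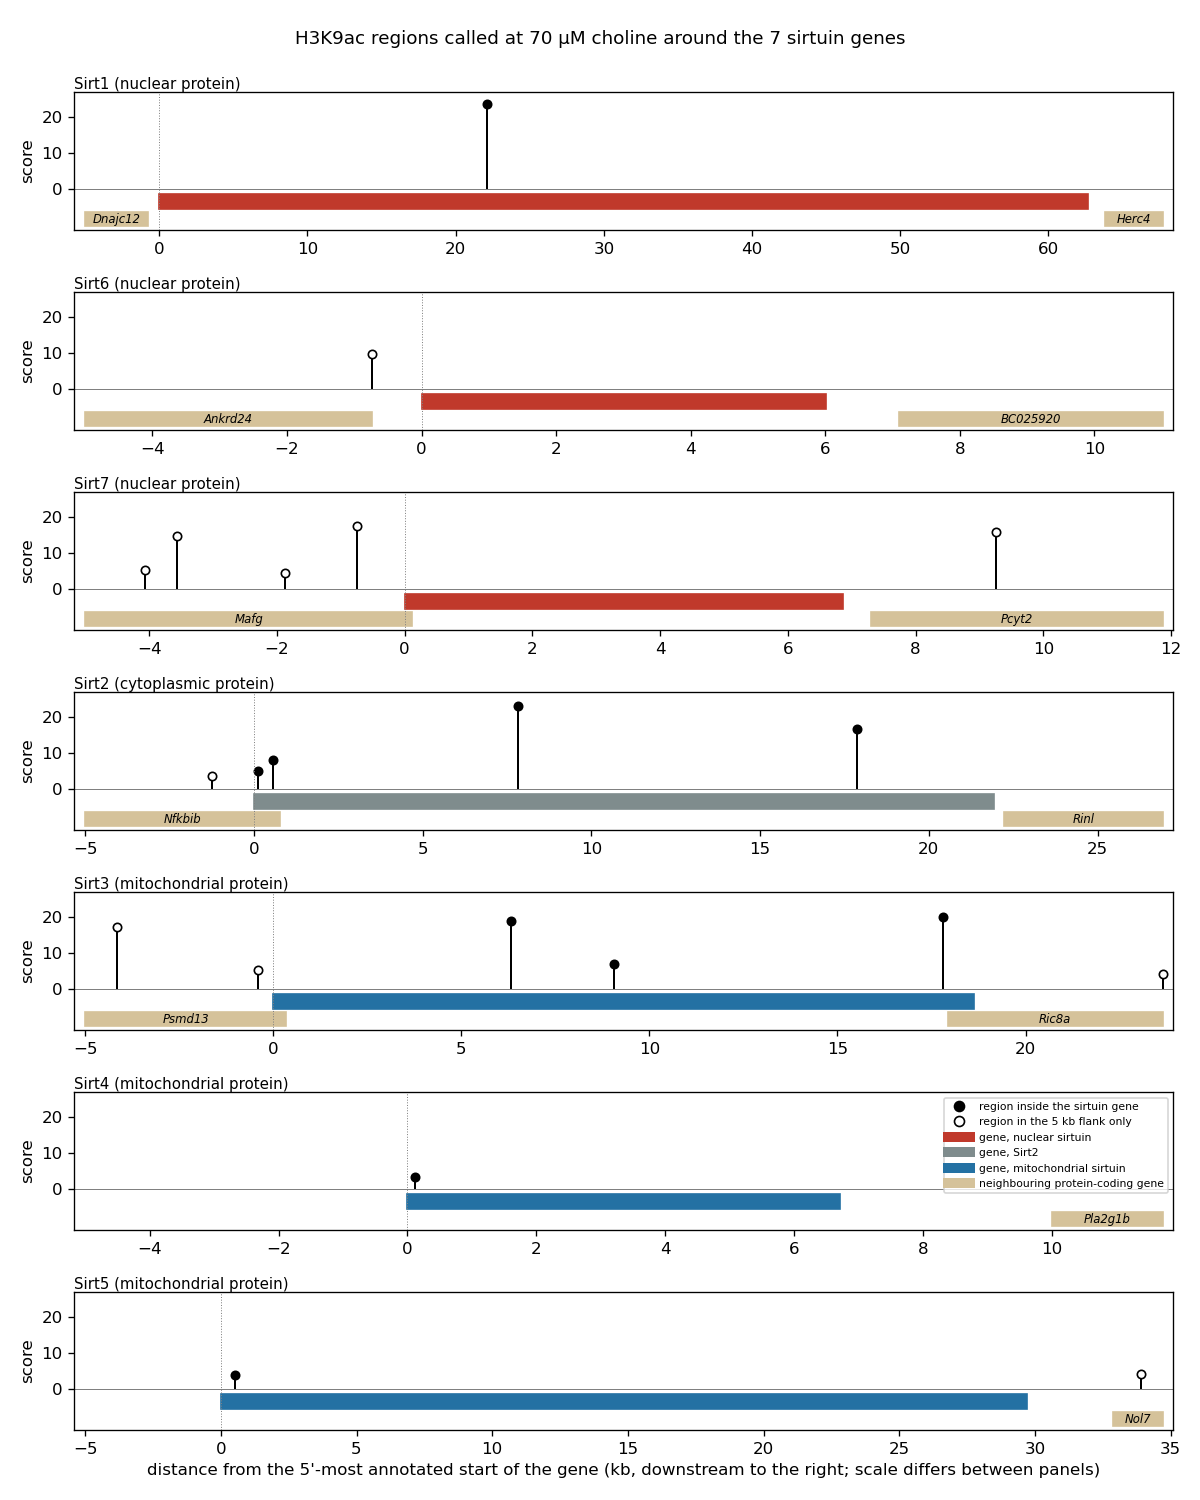
Each panel shows 1 sirtuin gene (thick bar) with its 5 kb flanks and the neighbouring protein-coding genes (sand bars), along the distance from the gene's 5′-most annotated start in kb; the height of each stem is the region's score in the authors' deposited table. Filled points lie inside the sirtuin gene and open points in its flank only: the regions of Sirt6 and Sirt7 are all open, and those of Sirt2 are filled except 1.

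Among the nuclear sirtuins, Sirt1 (ENSMUSG00000020063.16, chromosome 10, 63319005 to 63381704, minus strand) had the highest score of all 21 regions and no region near a start. Its only region, at 63359546 to 63359673, scored 23.66 in the authors' deposited table, higher than 98.0% of the list. It lay in an intron of transcript Sirt1-203, the only Sirt1 transcript that begins so far upstream, and also in an intron of the antisense gene Gm16145. The other coding transcripts of Sirt1 begin 20511 bp or more downstream of it. No region was listed at the RefSeq start, although the RefSeq promoter, 250 bp before to 50 bp after that start, held 47 CpG sites and was 79% G and C. It is printed up to the start, 5′ to 3′ on the gene's strand and with CpG sites in capitals, as the sirtuin promoter richest in CpG sites and one without a listed region.
Sirt1 promoter, chr10:63339036-63339285, minus strand: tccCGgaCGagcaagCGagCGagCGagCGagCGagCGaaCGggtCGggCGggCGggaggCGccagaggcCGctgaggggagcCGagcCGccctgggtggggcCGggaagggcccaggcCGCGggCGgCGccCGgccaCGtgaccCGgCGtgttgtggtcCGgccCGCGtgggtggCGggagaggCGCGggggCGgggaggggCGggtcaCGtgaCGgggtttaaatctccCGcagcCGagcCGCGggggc

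Sirt6 (ENSMUSG00000034748.16, chromosome 10, 81621785 to 81627797, minus strand) had 1 region, at 81628434 to 81628633, which the authors' deposited table scores at 9.64. Its near edge was 637 bp upstream of Sirt6, but the region covered an annotated start of Ankrd24, a gene for an ankyrin-repeat protein on the opposite strand. No region lay inside Sirt6. Sirt7 (ENSMUSG00000025138.14, chromosome 11, 120618372 to 120625240, minus strand) had 5 regions and none inside the gene. In the authors' deposited table their scores, in the order of their positions, were 15.79, 17.52, 4.51, 14.69 and 5.34. The first lay at exon 2 of Pcyt2, which encodes an enzyme of phosphatidylethanolamine synthesis, behind the 3′ end of Sirt7. The other 4 lay in the last exon of Mafg, a small Maf transcription factor gene on the same strand: 3 of them in its 3′ untranslated sequence and the last across its coding and untranslated parts. The region with the score of 17.52, at 120625862 to 120626106, was the region counted at the Sirt7 start, 622 bp upstream of the 5′-most start, that of a transcript with a retained intron, and 848 bp upstream of the nearest coding-transcript start. Chromosome 11 carried 37.5 regions per Mb, more than any other chromosome and against 16.8 over the genome; the part of this in the Sirt7 count was not tested.

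Sirt2 (ENSMUSG00000015149.14, chromosome 7, 28766735 to 28788661, plus strand), the mainly cytoplasmic sirtuin, had 4 regions inside the gene and 1 before it. The region at 28766768 to 28766960, scored at 4.93 by the authors' deposited table, spanned exon 1 and the beginning of the intron behind it, and held 17 CpG sites. A second start-site region, at 28767182 to 28767392 with a score of 8.10, covered the start of transcript Sirt2-208. Both also lay in an intron of Nfkbib-203, since Nfkbib, which encodes the NF-kappa-B inhibitor beta, overlaps Sirt2 by 778 bp on the opposite strand. The flanking region scored 3.63 and lay in Nfkbib. Farther in, an intronic region at 28774493 to 28774625 had a score of 23.23, and one at 28784531 to 28784681 had a score of 16.72, both in the authors' deposited table. The last covered the start of Sirt2-205, an annotated transcript without a coding sequence, 17277 bp downstream of the nearest coding-transcript start. Scores of the 2 regions at coding starts were thus below those of the 2 internal ones.

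Among the mitochondrial sirtuins, Sirt3 (ENSMUSG00000025486.17, chromosome 7, 140863666 to 140882309, minus strand) had 6 regions, 3 of them inside the gene. Near its start lay a region of 128 bp at 140882645 to 140882772, scored at 5.16 by the authors' deposited table. This region was 336 bp upstream of Sirt3 and inside an intron of Psmd13, a gene for a proteasome lid subunit that overlaps Sirt3 head to head by 342 bp. The highest Sirt3 scores were elsewhere. An intronic region at 140864414 to 140864599 scored 20.03 in the authors' deposited table, one in Psmd13 at 140886383 to 140886546 scored 17.29, and one at 140875928 to 140876048 scored 19.01. The last is counted at a start only through Sirt3-208, a transcript with a retained intron, whose start is 998 bp away. Its score is shared by 2552 regions of the list and cannot be ranked among them. The remaining scores in the authors' deposited table were 6.97 in an intron and 4.27 at a start of Ric8a, which encodes a chaperone of G protein alpha subunits. This last region only reached into the window, and the nearest one beyond it, 544 bp outside, scored 10.65.

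Sirt4 (ENSMUSG00000029524.16, chromosome 5, 115478010 to 115484725, minus strand) had 1 region, at 115484521 to 115484703. Its score of 3.37 was the lowest of the 21 and above only 1.08% of the list in the authors' deposited table. It began 22 bp downstream of the 5′-most start, in untranslated exon 1 of Sirt4-201, and 224 bp upstream of the RefSeq start. Sirt5 (ENSMUSG00000054021.6, chromosome 13, 43365496 to 43395203, plus strand) had a region at 43365944 to 43366078 with a score of 3.95, 258 bp downstream of the nearest start and across the end of untranslated exon 1 of Sirt5-207. Its other region, scored at 4.18 by the authors' deposited table, lay at coding exon 3 of Nol7, a gene for a nucleolar protein, behind the 3′ end of Sirt5. Sirt4 and Sirt5 thus had no region at or above the list's median score of 6.64.

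**Figure D2:**
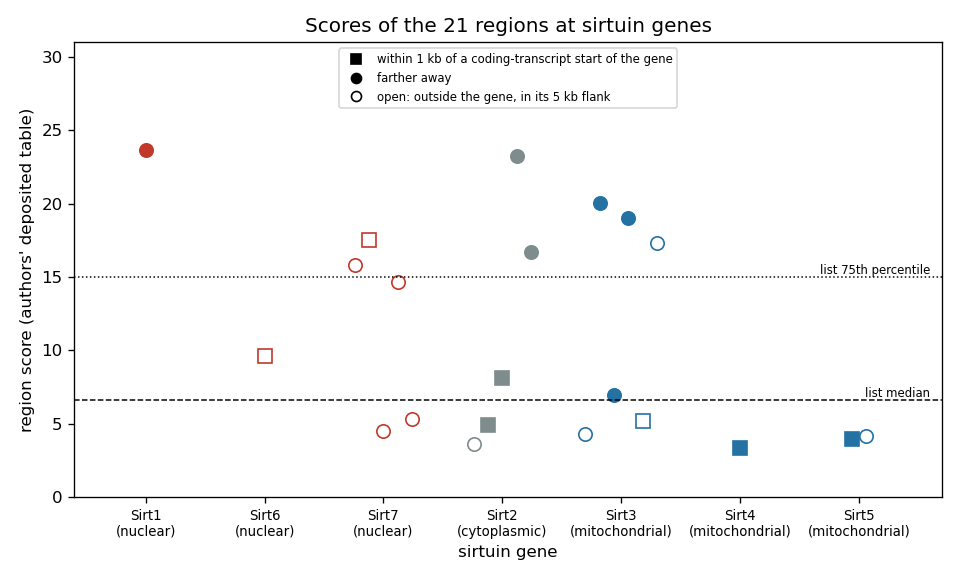
Each point is 1 of the 21 regions, placed by its sirtuin gene (x axis) and its score in the authors' deposited table (y axis); squares lie within 1 kb of a coding-transcript start of that gene, circles farther away, and open symbols outside the gene. Dashed and dotted lines are the median (6.64) and the 75th percentile (15.0) of the whole list. The squares of Sirt6 (9.64) and Sirt7 (17.52) stand above those of Sirt3 (5.16), Sirt4 (3.37) and Sirt5 (3.95).

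The nuclear and the mitochondrial sirtuins were set side by side, with Sirt2 apart. The 3 nuclear genes held 7 regions, of which 1 lay inside a gene, and the 3 mitochondrial genes held 9, of which 5 did. A start-site region was present at 2 of 3 nuclear genes and at 3 of 3 mitochondrial genes. By the authors' deposited table, scores had a median of 14.7 over the nuclear regions (range 4.51 to 23.66) and 5.16 over the mitochondrial ones (range 3.37 to 20.03). Sirt7 supplied 5 of the 7 nuclear regions, all in Mafg or Pcyt2, and Sirt3 supplied 6 of the 9 mitochondrial ones. Regions are not replicates of a class, so each median describes mostly 1 locus. Restricted to coding-transcript starts, the highest scores were 9.64 at Sirt6 and 17.52 at Sirt7, against 5.16 at Sirt3, 3.95 at Sirt5 and 3.37 at Sirt4. These do not overlap, but both nuclear values come from regions that overlap exons of neighbouring genes. Over all protein-coding genes with such a region the median was 5.39. With all annotated starts Sirt3 stood at 19.01 and the ranges overlapped. Each class has 3 genes at single loci in 1 list, so no test was made and no difference between the classes is claimed.

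Corrected for window length, the nuclear genes carried 1.24 ± 1.51 regions per 10 kb and the mitochondrial genes 1.07 ± 0.893 (SD over 3 genes each), which overlapped widely. Pooled over the windows of each class, the order was the opposite, with 0.663 regions per 10 kb for the nuclear genes and 1.06 for the mitochondrial genes. By gene the densities were 0.138 for Sirt1, 0.624 for Sirt6 and 2.96 for Sirt7, against 2.09 for Sirt3, 0.598 for Sirt4 and 0.504 for Sirt5, with 1.57 for Sirt2. The median over all protein-coding genes was 0.240 regions per 10 kb and the 75th percentile 0.800. Sirt7, Sirt3 and Sirt2 were above that percentile. Sirt1 alone was below the median, with the longest window of the family, 72.7 kb. The difference of the per-gene means, nuclear minus mitochondrial, was 0.18 regions per 10 kb and turned to -1.09 when the gene spans alone were counted, since Sirt6 and Sirt7 had no region of their own.

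**Figure D3:**
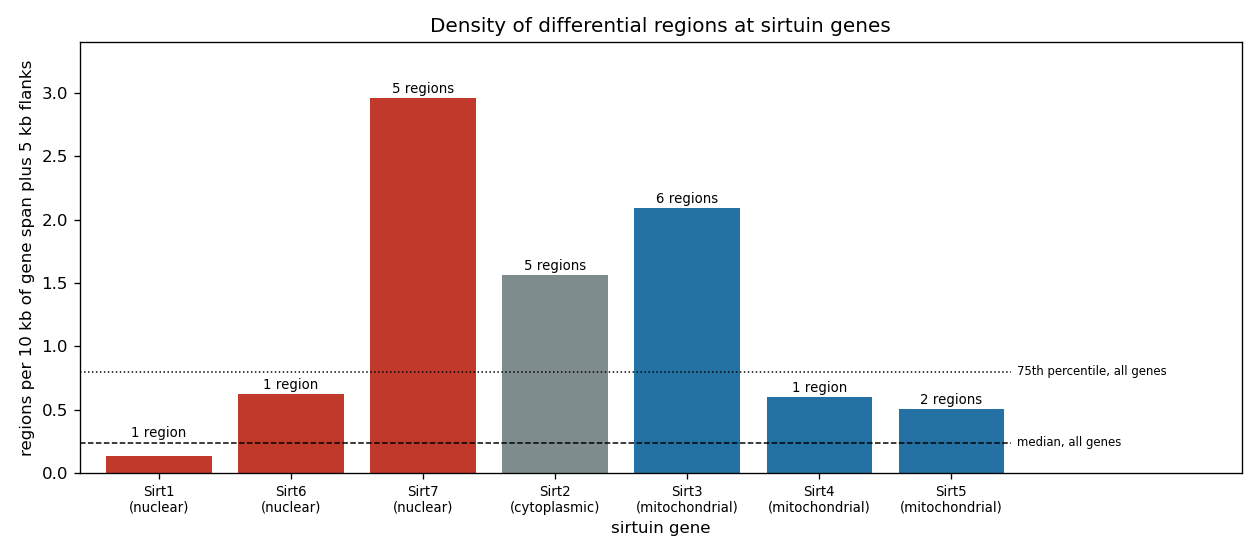
Bars give the number of regions per 10 kb of gene span plus 5 kb flanks (y axis) for each sirtuin gene (x axis), with the number of regions above each bar; the dashed and dotted lines are the median (0.240) and 75th percentile (0.800) over 21938 protein-coding genes. Sirt7 (2.96), Sirt3 (2.09) and Sirt2 (1.57) exceed the upper line.

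Several sirtuins lay head to head with a neighbour. The 5′-most starts of Sirt1, Sirt6, Sirt2 and Sirt3 lay within 1 kb of the 5′-most start of a protein-coding gene on the opposite strand, 739 bp for Sirt1 and Dnajc12, which encodes a J-domain co-chaperone, 743 bp for Sirt6 and Ankrd24, 777 bp for Sirt2 and Nfkbib and 341 bp for Sirt3 and Psmd13. This is 4 of 7 genes, against 10.9% of protein-coding genes, and of all genes in such pairs 72.5% had a start-site region. Sirt1 is among the 4 only through its long transcript, the only one that starts at 63381704. The RefSeq start of Sirt1, at 63339035, lies much farther than 1 kb from the Dnajc12 start at 63382443. Of the 7 regions within 1 kb of a sirtuin's own coding starts, 4 also lay within 1 kb of a start of the partner gene. All 11 regions that lay only in a flank overlapped a neighbouring protein-coding gene, 4 of them Mafg and 2 Psmd13. The region at Sirt6 lay only partly inside its neighbour, Ankrd24. Of the 10 regions inside sirtuin genes, 4 were intronic and 6 touched an annotated exon. By the nearest coding-transcript start, 9 of the 21 regions belonged to a sirtuin and 12 to another gene.

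CpG density was set beside the score. Split at a score of 10, a value chosen after the scores were seen, 9 regions stood above it in the authors' deposited table and 12 did not. The 9 high-scoring regions had a median of 8.26 CpG sites per kb and 1 lay within 1 kb of a coding-transcript start of any protein-coding gene. The 12 others had a median of 29.4 CpG sites per kb, and 10 lay that near to one. Over the whole list the same split gave medians of 10 and 15.6 CpG sites per kb, and 11.7% of the higher-scoring and 39.1% of the other regions lay within 1 kb of any annotated start, a wider definition than that of coding-transcript starts, so the order is that of the list. Widths ran from 121 to 387 bp with a median of 175 bp, against 170 bp over the list. The 121 bp region is the one in Sirt3 with the list's commonest score.

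**Figure D4:**
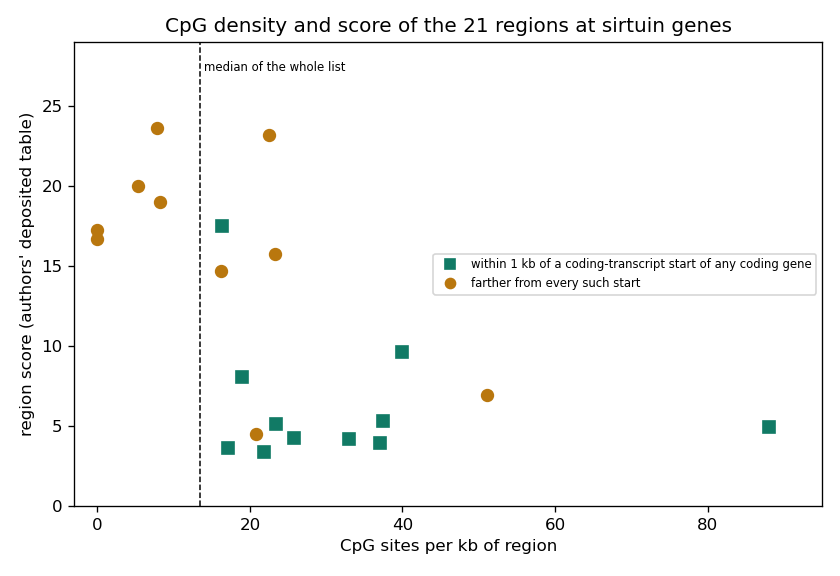
Each point is 1 of the 21 regions, by CpG sites per kb (x axis) and score in the authors' deposited table (y axis); green squares lie within 1 kb of a coding-transcript start of any protein-coding gene and brown circles farther away, and the dashed line is the list's median of 13.4 CpG sites per kb. Only 1 green square, at Sirt7 (17.52), stands above a score of 10, and 8 brown circles do.

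The RefSeq promoter table held 9 promoters of the 7 sirtuins, each from 250 bp before to 50 bp after a start. They had a median of 20 CpG sites, against 7 over all 32851 promoters of that length. A listed region overlapped the promoters of Sirt2 and Sirt4 and none of the other 7. The share of all promoters overlapped by a region was not computed, so this count is not read as high or low. Motifs were searched on both strands. The GC box GGGCGG was in 6 of 9 sirtuin promoters and in 35.7% of all promoters, with 7 copies at Sirt1. The CCAAT box CCAAT was in 3 of 9, against 37.4%, and the ETS core CCGGAAG in 3 of 9, against 8.86%. The E-box CACGTG was found at Sirt1 alone, against 7.15%, and the NRF1 core motif at 1 Sirt6 promoter, against 0.971%. The cAMP response element TGACGTCA was in none of the 9, against 1.79%. None of these words contains another, and a match is a run of letters, not a bound site.

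Genes around the sirtuins were counted in 5 lists of 57 genes in all, and no member of them had a 5 µM region at a start. The list named NAD synthesis also holds the NAD kinase genes and a carrier gene, whose products do not make NAD. In it 8 of 12 genes had a start-site region, against 39.5% of all protein-coding genes with regions of either level counted. By the authors' deposited table, scores were highest at the NAD synthetase gene Nadsyn1 (23.08), the NAD kinase gene Nadk (19.01), the nicotinate phosphoribosyltransferase gene Naprt (13.31) and the nicotinamide riboside kinase gene Nmrk1 (5.88). The Nadk score is the list's commonest one, as in Sirt3. Nmnat2 and Nmrk2 had none. Of 10 genes for NAD consumption and nicotinamide clearance, 4 had one, a share near that background: the NAD hydrolase gene Sarm1 (9.65), the tankyrase gene Tnks (5.54) and the poly(ADP-ribose) polymerase genes Parp3 (3.88) and Parp1 (3.80), by the authors' deposited table. Aox1, an aldehyde oxidase that oxidises nicotinamide derivatives, and Bst1 had none.

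Of 8 sirtuin regulators 7 had a start-site region, led, by the authors' deposited table, by the circadian factor gene Clock (16.29), the SUMO protease gene Senp1 (11.36), the cell cycle factor gene E2f1 (8.0) and Hic1, a repressor of Sirt1 (7.10). Ccar2, which encodes an inhibitor of SIRT1, was the one without. Substrates of the nucleus and cytoplasm had 8 of 13, led there by the nucleolar factor gene Ubtf (10.47), Tuba1a (4.92), Foxo1 (4.68) and Trp53 (4.41), and Acss2 and Foxo4 had none. Substrates of mitochondria had 5 of 14, led, by the authors' deposited table, by the superoxide dismutase gene Sod2 (8.86), Ndufa9 (8.81), Glud1 (6.37) and Pdha1 (4.40), with none at Acadl and Acss1. Over the 57 genes, 32 (56.1%) had a start-site region and the median of their highest scores was 5.64, against 39.5% and 5.68 over all protein-coding genes with regions of either level counted. For the 6 sirtuins with a start-site region that median was 13.2 with all annotated starts and 6.63 with coding-transcript starts. For the 8 zinc-dependent deacetylase genes with such a region it was 9.32 with all annotated starts.

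Zinc-dependent deacetylase genes were the nearest other family. A start-site region was present at 6 of 7 sirtuin genes and at 8 of 11 genes Hdac1 to Hdac11, all called at 70 µM, against 39.2% of all protein-coding genes. The sirtuin windows held 21 regions and the zinc-dependent deacetylase windows 78, of which Hdac7 held 22, Hdac4 19 and Hdac5 17. The median density was 0.624 regions per 10 kb over the sirtuins and 0.720 over the zinc-dependent genes, against 0.240 over all protein-coding genes. These counts are given side by side without a test.

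**Figure D5:**
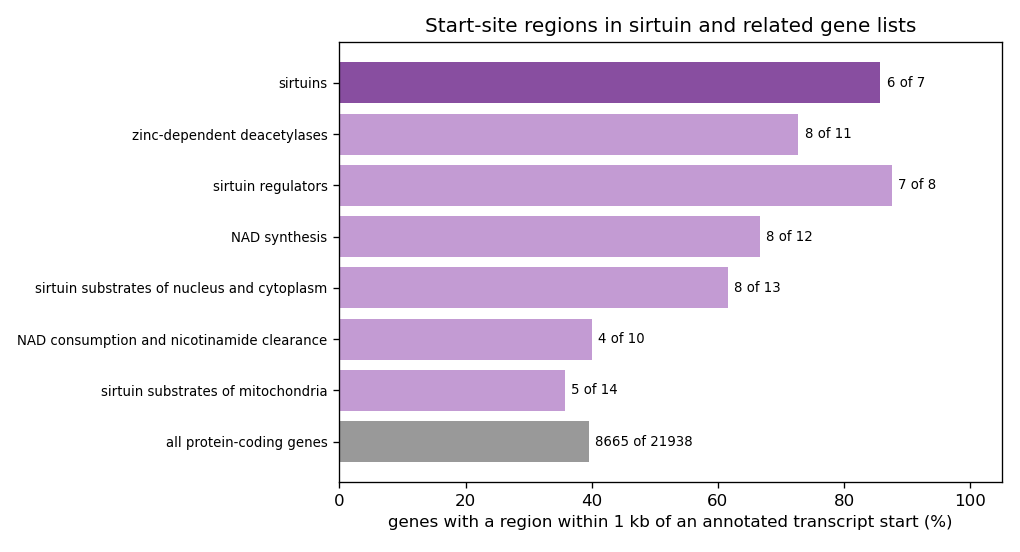
Bars give the percentage of genes in each list (named down the y axis) with a region of either level within 1 kb of an annotated transcript start (x axis, in %), with the number of genes beside each bar. The sirtuins stand at 6 of 7, the sirtuin regulators at 7 of 8 and the mitochondrial substrates at 5 of 14, beside 8665 of 21938 protein-coding genes.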

How the data were processed

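Per the series' design text and the submitters' processing notes, reads were processed with CASAVA 1.8, mapped to mm10 with Bowtie 1.0.0, H3K9ac peaks were called against input with MACS2 and differences between the choline levels with its bdgdiff function. The deposited list gives each region a position and a score; the column is unnamed per the file headers, and it is taken as the log10 likelihood ratio that bdgdiff of MACS2 normally writes. It is the authors' own value and is used only to describe or filter regions within the list. The scaling between libraries and the read depth are not given in the sources used here, so no precision follows from depth.

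Regions were set against GENCODE M21 and RefSeq GRCm38.p6, both of the build mm10, on chromosomes 1 to 19, X and Y, with Python 3.11.15. Coordinates count from 1 and an overlap is at least 1 bp. A start-site region lies within 1000 bp of any annotated transcript start of the gene. The overlap code was tested on simulated intervals. The members and lists were chosen with earlier results of these data known. Named genes are the 7 members, neighbours whose start window a region overlapped, and in each list up to 4 genes with the highest scores and up to 2 without a region in alphabetical order; Dnajc12, Pcyt2, Gm16145, the region-rich Hdac genes and Ccar2 were named for position or count, after their values were seen. No test was made, since the list has no replicates. Alternatives were 9 planned settings and 3 added after the data were seen: coding-transcript starts, RefSeq starts and removal of the 2 commonest scores.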

Additional observations from a re-analysis of the deposited data

How the results depend on the processing

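Of 64 pairs of a group value and an alternative setting, 47 left the value within 1.5 times, 14 moved it further and 3 turned its sign. Many pairs count the same regions, so they are not independent checks. No replicate could be left out, since the list has none. With the gene spans alone there were 10 regions at the sirtuins, 1 at the nuclear and 5 at the mitochondrial genes, and the nuclear minus mitochondrial density was -1.09 regions per 10 kb. With flanks of 2 kb the nuclear genes had 4 regions and that density difference was -0.0025, and with flanks of 10 kb it was 0.00094. Counting Sirt2 as nuclear gave 12 nuclear regions. Restricted to regions at or above the median score there were 12 regions at the sirtuins and 4 at the mitochondrial genes. The density difference was then 0.38. The difference in start-site score was -5.42, with Sirt3 the only mitochondrial gene left, through its 19.01, the list's commonest score. Start-site regions were then at 11 of 57 pathway genes and 5 of 11 zinc-dependent deacetylase genes, against 14.3% of all protein-coding genes. With 5′-most starts only the zinc-dependent genes also numbered 5, and the pathway genes fell from 32 to 23 of 57. With RefSeq starts the pathway genes numbered 25, against 35.9% of the genes in the RefSeq promoter table. With coding-transcript starts they numbered 28, against 36.4% of protein-coding genes. The density difference was 0.29 by midpoints and also 0.29 without the 2 commonest scores. The start-site score difference (nuclear minus mitochondrial median of the genes' highest scores) was 9.64 with all annotated starts within 1 kb and could not be given for starts within 500 bp, where no nuclear gene has a region. The sirtuin genes with a start-site region numbered from 4 to 6 of 7 under every setting tried. They numbered 4 at or above the median score and also 4 for starts within 500 bp. No share over all genes was computed for other start windows, 5′-most starts, midpoints or removal of the commonest scores. Read depth is unknown and limits all counts. No paired analysis was possible because the list has no columns of values per library and the labels give no choline level to any library.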
